A study of Mus musculus with 12 samples.

Results

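A set of 10 receptor genes through which phagocytes bind antibody, modified lipids, bacteria and sugars, or read a "do not eat" signal, is described here in BV2 microglia: Fcgr1, Fcgr2b, Fcgr3, Fcgr4, Fcer1g, Msr1, Mrc1, Marco, Cd47 and Sirpa. They were picked by name from the 21834 genes of the count table, and all 10 were among the 11626 genes with enough counts to be tested. BV2 is an immortalized mouse microglial line. In 4 groups, 3 RNA-seq libraries each were compared, all from BV2 cells that carried a lentiviral shRNA and had been selected with puromycin. The shCtrl-CTRL group expressed a control shRNA and was not treated. The shCtrl-OGDR group expressed the same shRNA and went through oxygen-glucose deprivation and reoxygenation (OGD/R), a culture model of ischemia and reperfusion, which the labels give as 4 h in low oxygen without glucose and 12 h of reoxygenation, while the paper's methods give a longer reoxygenation. The shAnxa2-CTRL and shAnxa2-OGDR groups expressed an shRNA against Anxa2, the gene of the membrane-binding protein annexin A2, and were untreated or taken through the same OGD/R. Because the knockdown rests on 1 shRNA, its effect on Anxa2 and any other difference between the lines cannot be told apart. Groups follow the sample titles, since the cell type and genotype tags of the shCtrl-OGDR and shAnxa2-CTRL samples go against them, while the treatment tag goes with the title in all 12 samples. An exchange of treated and untreated samples within one line was not tested, and it would turn every OGD/R direction given for that line. It would also change the interactions and the comparisons between the lines.

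Fc receptors bind the constant part of antibodies. FcγRI (Fcgr1), FcγRIII (Fcgr3) and FcγRIV (Fcgr4) need the common γ chain (Fcer1g), whose cytoplasmic tyrosine motif, the ITAM, recruits the kinase Syk, while FcγRIIb (Fcgr2b) carries an inhibitory motif, the ITIM, that recruits phosphatases. Scavenger receptors such as SR-A1 (Msr1) and MARCO (Marco) take up modified lipoproteins and bacteria, and the mannose receptor CD206 (Mrc1) takes up glycoproteins. CD47 on a cell's surface binds SIRPα (Sirpa) on the phagocyte, and the ITIMs of SIRPα then hold back engulfment.

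The bases around tyrosines that matched an ITAM or ITIM pattern are shown for members known to carry such a motif. Fcer1g was searched for the ITAM pattern only, and Fcgr2b and Sirpa for the ITIM pattern only. The other members were not searched, and matches in the first part of a protein were left out. Tyrosines outside a match are not shown. The bases were read from the principal transcript of each gene in the GENCODE M21 annotation of GRCm38. They run 5′ to 3′ in the sense of the gene, and have the tyrosine codons in capitals. Residues are counted from the first methionine.
Fcer1g ITAM, tyrosines 65 and 76 of 86 residues, exons 4 and 5 of 5, minus strand, chr1:171230067-171230084 joined to chr1:171229877-171229927: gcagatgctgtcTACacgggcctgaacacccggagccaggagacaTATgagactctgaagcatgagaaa
Fcgr2b ITIM, tyrosine 319 of 340, exon 8 of 8, minus strand, chr1:170961059-170961100: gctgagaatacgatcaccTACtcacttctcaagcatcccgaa
Sirpa first ITIM match, tyrosine 436 of 509, exon 8 of 8, plus strand, chr2:129629942-129629983: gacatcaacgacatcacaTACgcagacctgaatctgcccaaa
Sirpa middle ITIM match, tyrosine 477 of 509, exon 8 of 8, plus strand, chr2:129630065-129630106: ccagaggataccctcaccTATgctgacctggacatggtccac
Sirpa last ITIM match, tyrosine 501 of 509, exon 8 of 8, plus strand, chr2:129630137-129630178: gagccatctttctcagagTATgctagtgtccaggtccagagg
The coding sequences of Fcgr2b and Fcgr3 were 86.8% identical over 787 aligned bases, with an identical run of 129 bases. Of the windows of 100 bases in their transcripts, 2.41% for Fcgr2b and 3.53% for Fcgr3 also occurred in another gene, so that a small part of their reads cannot be placed with certainty. For the other 8 members no such window was found.

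The libraries held 19521877 to 27288843 counts, with a common biological coefficient of variation of 5.35%. Anxa2 was at 171.7 ± 6.36 CPM in shCtrl-CTRL, 278.9 ± 24.3 in shCtrl-OGDR, 40.4 ± 4.86 in shAnxa2-CTRL and 19.6 ± 1.26 in shAnxa2-OGDR (SD, n = 3). CPM are the counts scaled to a common library total, after TMM. These Anxa2 levels go with the titles on the line of each group. Of 14 microglial and macrophage markers, 13 were tested, with Csf1r at 388 to 590 CPM, while Sall1 had no counts and P2ry12 and Tmem119 were at 1.35 to 2.66 and 1.41 to 10.7 CPM. Aif1, Cx3cr1 and C1qa were also low, at 1.99 to 6.20, 2.67 to 6.35 and 0.049 to 2.76 CPM. Adgre1 had group means from 131 CPM in shAnxa2-OGDR to 396 in shCtrl-OGDR. The summed endothelial markers ranged from 110 to 119 CPM in shCtrl-OGDR and from 279 to 285 in shAnxa2-OGDR, with 209 to 216 and 166 to 179 in shCtrl-CTRL and shAnxa2-CTRL. That sum came from Kdr and Vwf, while Cdh5, Cldn5 and Tek had means under 1 CPM. In shCtrl-CTRL, shCtrl-OGDR, shAnxa2-CTRL and shAnxa2-OGDR, Kdr averaged 167, 64.3, 118 and 226 CPM and Vwf 43.6, 50.3, 54.2 and 53.7. The differences in the sum were thus mostly those of Kdr, and its part in the results was not tested. The shCtrl-CTRL libraries lay nearest to shAnxa2-OGDR (mean distance 0.416 on the log2 scale) and shCtrl-OGDR nearest to shAnxa2-CTRL (0.453), against 0.252 to 0.28 within groups. With the groups as titled, OGD/R changed Anxa2 by 0.70 (shCtrl) and −1.04 (shAnxa2) in log2 units. In bulk RNA, fewer expressing cells and less RNA per cell cannot be told apart.

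To compare the members with each other, levels were set per kilobase of the merged exons of each gene. Fcer1g was highest, with a mean of 473 CPM per kilobase over the 12 libraries, in the 99.1 percentile of tested genes. Sirpa followed at 154 and Fcgr3 at 120, with overlapping library ranges. The activating receptors Fcgr1 and Fcgr4 averaged 24.8 and 23.6 CPM per kilobase, and their library ranges overlapped. Marco at 16.0, Cd47 at 15.3 and Fcgr2b at 12.2 overlapped one another, and Marco and Cd47 reached into the ranges of Fcgr1 and Fcgr4. Msr1 at 1.73 and Mrc1 at 0.787 CPM per kilobase were the lowest, near the 18.9 and 12.9 percentiles. The order depends on the length used. Per kilobase of the principal transcript, an alternative chosen after seeing the data, Cd47 averaged 72.5 CPM per kilobase and its lowest library (43.1) lay above the highest of Fcgr1 (35.4) and Fcgr4 (27.1), while Msr1 averaged 4.94 and overlapped Marco.

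**Figure D1:**
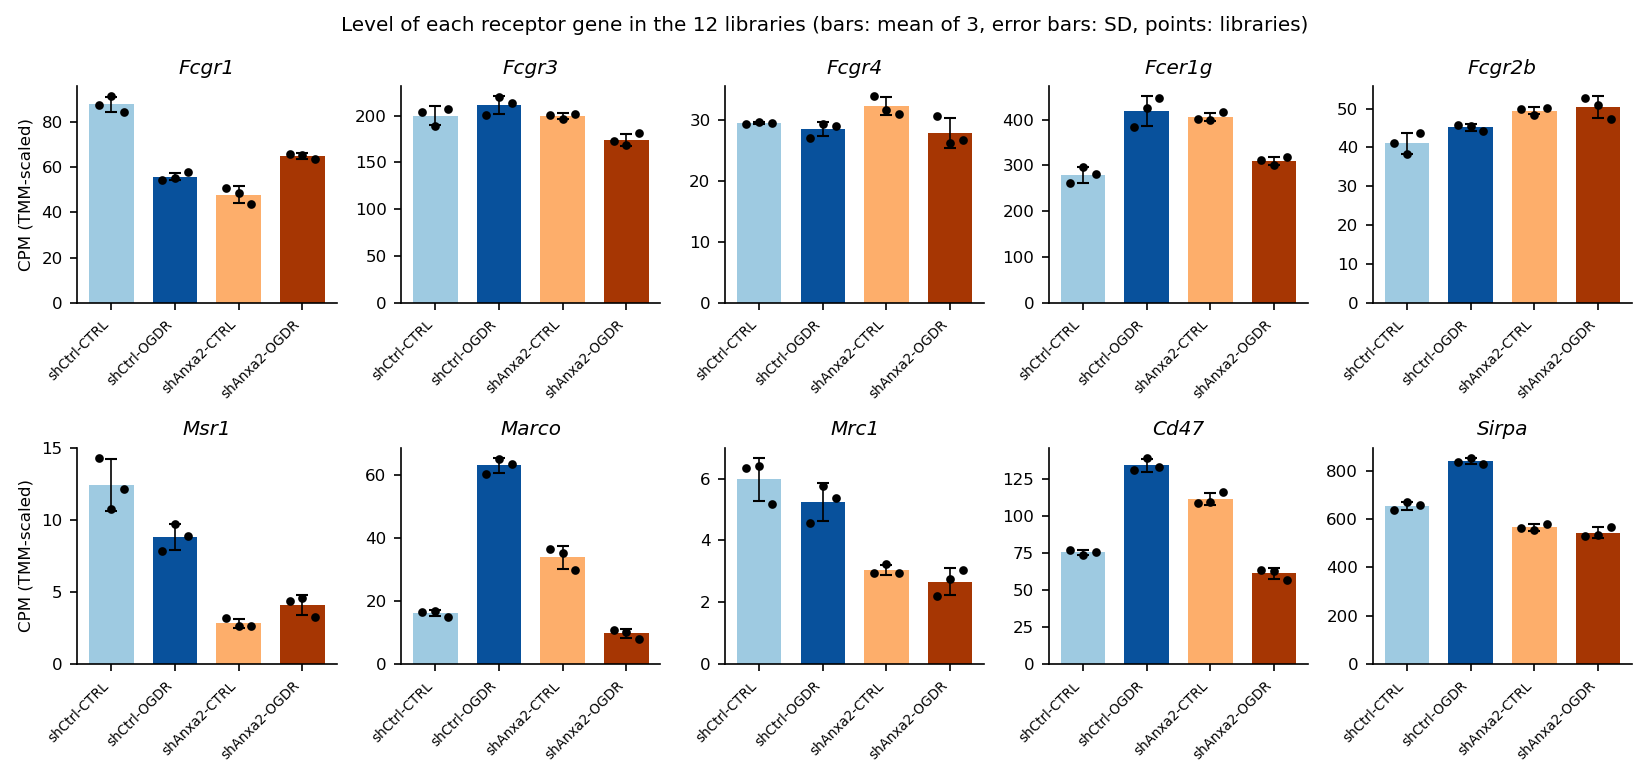
CPM of each receptor gene (vertical axis, from 0, scaled per panel) in the 4 groups (horizontal axis). Bars are means of 3 libraries, error bars are SD and points are libraries, and Marco ranged from 9.71 ± 1.47 CPM in shAnxa2-OGDR to 63.1 ± 2.42 in shCtrl-OGDR.

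To examine how OGD/R moved the receptors in control cells, shCtrl-OGDR was compared with shCtrl-CTRL. Of the 10 members, 6 had an adjusted p under 0.05 by the edgeR quasi-likelihood test, adjusted after Benjamini and Hochberg, where 63.4% of all genes tested did. Fcer1g, Marco, Cd47 and Sirpa rose (32.4% of all genes rose) and Fcgr1 and Msr1 fell (31.0% fell). In shAnxa2 cells 7 members passed the same test, against 55.0% of all genes. Fcgr1 and Msr1 rose (28.2% of all genes rose), and Fcgr3, Fcgr4, Fcer1g, Marco and Cd47 fell (26.8% fell). The 5 members Fcgr1, Fcer1g, Msr1, Marco and Cd47 were called in both lines, as were 45.1% of all genes, and each in opposite directions, as were 44.4% of all genes. These directions rest on the titles, and with treated and untreated samples exchanged in one line the same 5 members would move alike in both. With a log2 fold change of at least 1 also asked for, Marco was the 1 member called in each line, against 6.73% and 3.54% of all genes. The 5 of 10 members that fell in shAnxa2 cells were a larger share than the 26.8% of all genes, a difference that was not tested. The median log2 fold change of the members was 0.11 in shCtrl and −0.19 in shAnxa2 cells, against 0.0045 and 0.0044 for all genes tested.

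The high-affinity receptor Fcgr1 (ENSMUSG00000015947, minus strand, chr3:96190225-96201285 in mm39, the build of the submitters' notes and of the other gene spans given here) fell with OGD/R in control cells and rose in knockdown cells. It was at 87.6, 91.6 and 84.8 CPM in the shCtrl-CTRL libraries and at 54.5, 55.5 and 57.8 in shCtrl-OGDR. The shAnxa2-CTRL libraries had 51.0, 48.8 and 43.8 CPM and the shAnxa2-OGDR libraries 66.2, 65.7 and 63.6. No library of one group overlapped another group, and the order from low to high was shAnxa2-CTRL, shCtrl-OGDR, shAnxa2-OGDR and shCtrl-CTRL. The log2 fold change after OGD/R was −0.65 (SE 0.0565, adjusted p = 4.04e-10 by the edgeR quasi-likelihood test) in shCtrl and 0.45 (SE 0.0587, adjusted p = 7.42e-07) in shAnxa2 cells. The difference between these changes, the interaction, was 1.10 (SE 0.0815, adjusted p = 1.48e-11 by the same test).

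The other activating receptors moved little. Fcgr3 (ENSMUSG00000059498, chr1:170878743-170892504, minus strand) had 204, 189 and 207 CPM in shCtrl-CTRL, 201, 219 and 213 in shCtrl-OGDR, 201, 196 and 201 in shAnxa2-CTRL and 172, 168 and 181 in shAnxa2-OGDR. The first 3 groups overlapped and shAnxa2-OGDR lay below them. It fell by 0.20 on the log2 scale in shAnxa2 cells (SE 0.0499, adjusted p = 0.00165 by the edgeR quasi-likelihood test), while its value in shCtrl cells was 0.08 (SE 0.0494, adjusted p = 0.168, or 0.0484 without shCtrl-OGDR replicate 1). The interaction was −0.28 (SE 0.0702, adjusted p = 0.00119). Fcgr4 (ENSMUSG00000059089, chr1:170846489-170857330, plus strand), a receptor for IgG2 subclasses, was at 29.6 ± 0.172, 28.6 ± 1.20, 32.3 ± 1.49 and 28.0 ± 2.49 CPM in shCtrl-CTRL, shCtrl-OGDR, shAnxa2-CTRL and shAnxa2-OGDR (SD, n = 3). It fell by 0.21 on the log2 scale with OGD/R in shAnxa2 cells (SE 0.0716, adjusted p = 0.0156 by the same test), a call that was lost without shAnxa2-CTRL replicate 1 (adjusted p = 0.0739) or shAnxa2-OGDR replicate 2 (adjusted p = 0.0783). In shCtrl cells its value was −0.05 (SE 0.0705, adjusted p = 0.527), and the interaction of −0.16 (SE 0.101, adjusted p = 0.166) passed without shAnxa2-OGDR replicate 1 (adjusted p = 0.0445).

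The γ chain gene Fcer1g (ENSMUSG00000058715, chr1:171057141-171061934, minus strand) moved opposite to Fcgr1. It had 261, 297 and 282 CPM in shCtrl-CTRL, 383, 425 and 448 in shCtrl-OGDR, 401, 401 and 417 in shAnxa2-CTRL and 311, 300 and 318 in shAnxa2-OGDR. The shCtrl-OGDR and shAnxa2-CTRL libraries overlapped and both lay above the other 2 groups, which did not overlap each other. The log2 fold change after OGD/R was 0.58 (SE 0.0563, adjusted p = 3.05e-09 by the edgeR quasi-likelihood test) in shCtrl and −0.39 (SE 0.0564, adjusted p = 2.92e-06) in shAnxa2 cells. The interaction was −0.97 (SE 0.0797, adjusted p = 9.77e-11 by the same test). Relative to the summed per-kilobase levels of its partners Fcgr1, Fcgr3 and Fcgr4, Fcer1g stood at 2.08 ± 0.180 in shCtrl-CTRL, 3.21 ± 0.160 in shCtrl-OGDR, 3.26 ± 0.108 in shAnxa2-CTRL and 2.69 ± 0.0219 in shAnxa2-OGDR (SD, n = 3). The ratio was lowest in shCtrl-CTRL, and those of shCtrl-OGDR and shAnxa2-CTRL overlapped.

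The inhibitory Fcgr2b (ENSMUSG00000026656, chr1:170786186-170804116, minus strand) did not pass the test for OGD/R in either line. Its levels were 41.1, 38.3 and 43.9 CPM in shCtrl-CTRL, 45.8, 45.7 and 44.2 in shCtrl-OGDR, 49.9, 48.5 and 50.2 in shAnxa2-CTRL and 52.9, 51.0 and 47.3 in shAnxa2-OGDR. Both shAnxa2 groups lay above both shCtrl groups. The log2 fold change after OGD/R was 0.14 (SE 0.0613, adjusted p = 0.0519 by the edgeR quasi-likelihood test) in shCtrl and 0.02 (SE 0.0611, adjusted p = 0.759) in shAnxa2 cells, and the interaction was −0.11 (SE 0.0866, adjusted p = 0.244). The value in shCtrl cells passed without shCtrl-CTRL replicate 3 (adjusted p = 0.016), shAnxa2-OGDR replicate 2 (0.047) or shAnxa2-OGDR replicate 3 (0.0294). Per kilobase, its share of the 4 Fcγ receptor messages was 5.64% ± 0.236 in shCtrl-CTRL, 6.39% ± 0.320 in shCtrl-OGDR, 7.24% ± 0.129 in shAnxa2-CTRL and 7.90% ± 0.494 in shAnxa2-OGDR (SD, n = 3). Over the same groups the share of Fcgr1 was 17.8% ± 1.20, 11.6% ± 0.377, 10.3% ± 0.709 and 15.0% ± 0.528, and Fcgr3 made up 63.8% to 69.7%.

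**Figure D2:**
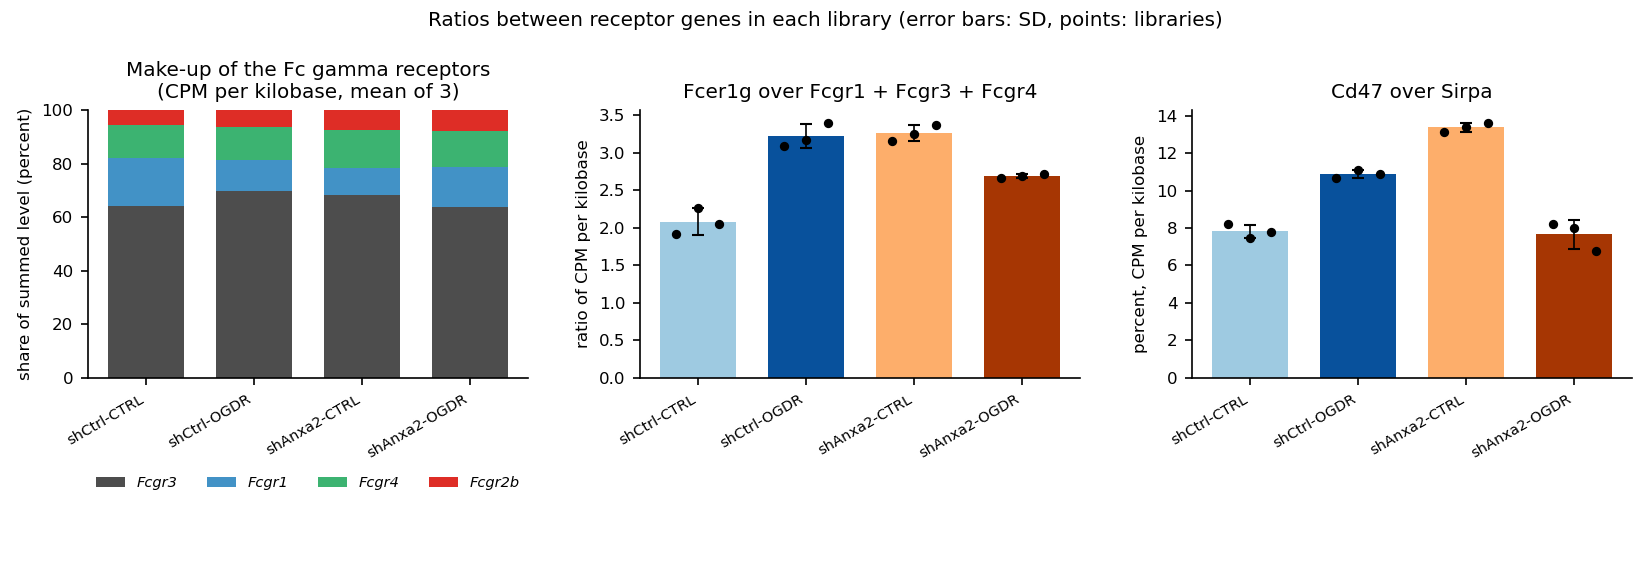
Left, the mean share of the 4 Fcγ receptor messages (percent, CPM per kilobase of merged exons) by group. Middle and right, Fcer1g over the sum of Fcgr1, Fcgr3 and Fcgr4 and Cd47 over Sirpa (percent), with bars for means of 3 libraries, error bars for SD and points for libraries, where Cd47 over Sirpa was highest in shAnxa2-CTRL at 13.4% ± 0.238.

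Of these genes, 4 lie together on chromosome 1, in the order Fcgr2b, Fcgr4, Fcgr3 and, after a gap of 164637 bases, Fcer1g. From the first base of Fcgr2b to the last of Fcer1g the table held 11 genes, of which 10 were tested. Between Fcgr3 and Fcer1g, Sdhc, a subunit gene of respiratory complex II, had log2 fold changes of 0.42 and −0.25 after OGD/R in shCtrl and shAnxa2 cells, and Tomm40l, a gene of mitochondrial protein import, had 0.28 and −0.12, of which −0.12 did not pass the test (adjusted p = 0.337 by the edgeR quasi-likelihood test). Within the locus, Fcer1g and Sdhc were called in opposite directions in both lines, and Fcgr2b, Fcgr3 and Fcgr4 were not.

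Of the scavenger receptors, Marco (ENSMUSG00000026390, chr1:120402267-120432753, minus strand) had the largest OGD/R change of the 10 members in each line. It had 16.5, 17.0 and 15.0 CPM in shCtrl-CTRL and 60.4, 65.2 and 63.7 in shCtrl-OGDR. The shAnxa2-CTRL libraries had 36.5, 35.4 and 29.8 CPM and the shAnxa2-OGDR libraries 10.9, 10.2 and 8.05. All 4 groups were separate, in the order shAnxa2-OGDR, shCtrl-CTRL, shAnxa2-CTRL and shCtrl-OGDR. Marco rose 3.90-fold with OGD/R in shCtrl cells (log2 fold change 1.96, SE 0.0858, adjusted p = 2.72e-15 by the edgeR quasi-likelihood test) and was 3.48-fold lower after it in shAnxa2 cells (log2 fold change −1.80, SE 0.0973, adjusted p = 5.18e-13). The interaction was −3.76 (SE 0.129, adjusted p = 1.30e-17 by the same test), larger in size than that of 99.3% of the genes tested.

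Msr1 (ENSMUSG00000025044, chr8:40034726-40095714, minus strand), the class A relative of Marco, went the other way at a lower level. Its counts were 343, 293 and 331 in shCtrl-CTRL, 201, 254 and 173 in shCtrl-OGDR, 65, 55 and 67 in shAnxa2-CTRL and 86, 115 and 68 in shAnxa2-OGDR. In CPM these were 14.3, 10.7 and 12.2, then 7.86, 9.70 and 8.86, then 3.18, 2.65 and 2.66, and then 4.39, 4.57 and 3.30, with no overlap between groups. The log2 fold change after OGD/R was −0.49 (SE 0.126, adjusted p = 0.00158 by the edgeR quasi-likelihood test) in shCtrl and 0.54 (SE 0.176, adjusted p = 0.0118) in shAnxa2 cells, and the latter missed the threshold without shAnxa2-OGDR replicate 2 (adjusted p = 0.0735). The interaction was 1.03 (SE 0.216, adjusted p = 0.000175). Per kilobase of merged exons, the ratio of Marco to Msr1 was 2.79 ± 0.479 in shCtrl-CTRL, 15.2 ± 1.02 in shCtrl-OGDR, 25.4 ± 2.48 in shAnxa2-CTRL and 5.03 ± 0.276 in shAnxa2-OGDR (SD, n = 3). With principal transcripts it was 0.978, 5.32, 8.89 and 1.76 in the same groups, so that which of the pair was higher in shCtrl-CTRL depends on the length.

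The mannose receptor gene Mrc1 (ENSMUSG00000026712, chr2:14234203-14336868, plus strand) differed by line, while its OGD/R changes did not pass the test. Its counts were 152, 175 and 141 in shCtrl-CTRL, 117, 151 and 105 in shCtrl-OGDR, 60, 67 and 74 in shAnxa2-CTRL and 43, 69 and 63 in shAnxa2-OGDR. In CPM the groups were at 5.98 ± 0.693, 5.24 ± 0.606, 3.03 ± 0.166 and 2.66 ± 0.436 (SD, n = 3), and the treated and untreated libraries of each line overlapped. The log2 fold change after OGD/R was −0.19 (SE 0.143, adjusted p = 0.251 by the edgeR quasi-likelihood test) in shCtrl and −0.18 (SE 0.179, adjusted p = 0.414) in shAnxa2 cells, and the interaction was 0.01 (SE 0.233, adjusted p = 0.971).

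The checkpoint pair was read as ligand and receptor. Cd47 (ENSMUSG00000055447, chr16:49620896-49735373, plus strand) had 76.8, 73.6 and 75.5 CPM in shCtrl-CTRL, 131, 139 and 132 in shCtrl-OGDR, 109, 109 and 116 in shAnxa2-CTRL and 63.6, 62.9 and 56.7 in shAnxa2-OGDR. As for Marco, the 4 groups were separate and in the same order. Cd47 rose 1.78-fold in shCtrl cells (SE of the log2 fold change 0.0509, adjusted p = 9.63e-13 by the edgeR quasi-likelihood test) and was 1.82-fold lower after OGD/R in shAnxa2 cells (SE 0.0525, adjusted p = 3.47e-12), with an interaction of −1.70 (SE 0.0731, adjusted p = 7.78e-16). Sirpa (ENSMUSG00000037902, chr2:129434755-129474148, plus strand) had 638, 671 and 659 CPM in shCtrl-CTRL, 835, 854 and 829 in shCtrl-OGDR, 563, 554 and 581 in shAnxa2-CTRL and 529, 536 and 568 in shAnxa2-OGDR. The shCtrl-OGDR libraries were the highest and the shAnxa2 groups overlapped. Sirpa rose by a log2 fold change of 0.36 in shCtrl cells (SE 0.0442, adjusted p = 1.89e-07 by the same test), while its value in shAnxa2 cells was −0.06 (SE 0.0444, adjusted p = 0.292), and the interaction was −0.41 (SE 0.0626, adjusted p = 2.81e-06). Per kilobase of merged exons, Cd47 came to 7.82% ± 0.360 of Sirpa in shCtrl-CTRL, 10.9% ± 0.211 in shCtrl-OGDR, 13.4% ± 0.238 in shAnxa2-CTRL and 7.66% ± 0.757 in shAnxa2-OGDR (SD, n = 3). With principal transcripts, of 1316 bases for Cd47 in place of 6231, it came to 34.8%, 48.3%, 59.5% and 34.0% in the same groups, with the groups in the same order.

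**Figure D3:**
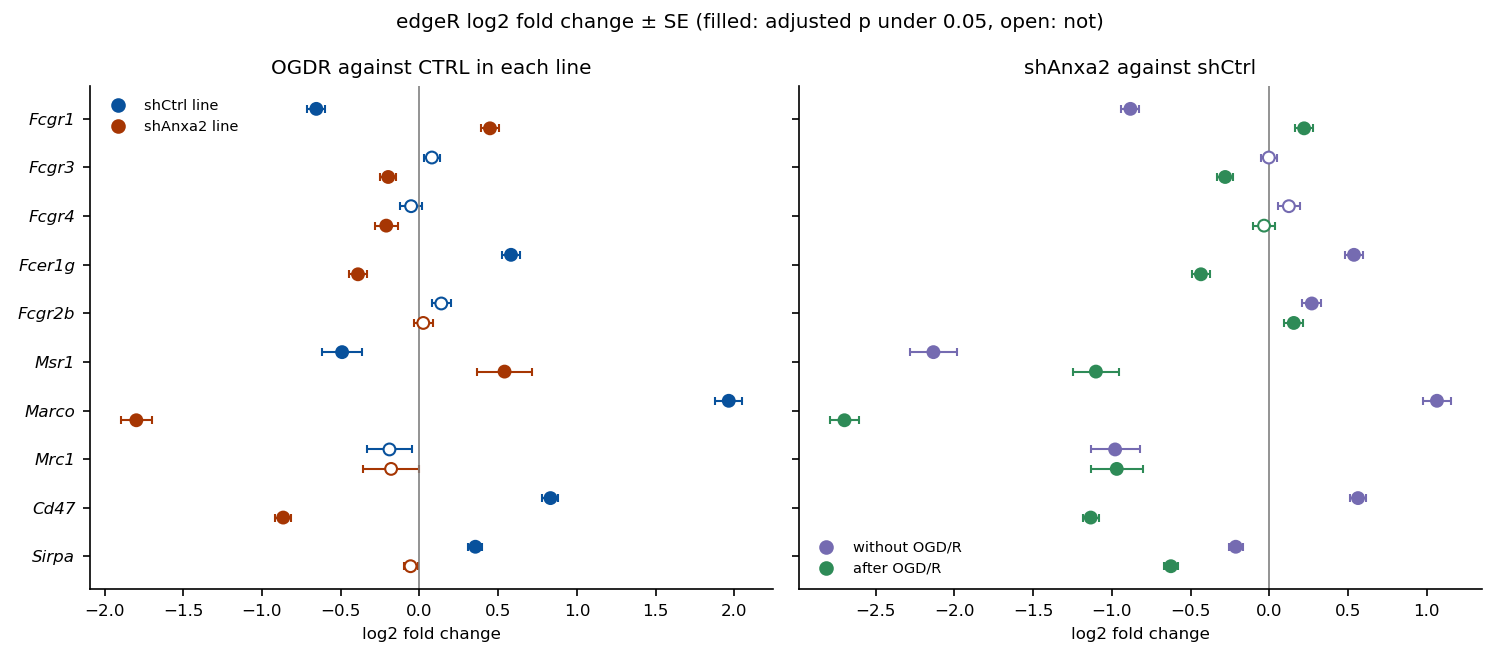
edgeR log2 fold changes (horizontal axis, error bars are SE) of the 10 genes. On the left OGDR is set against CTRL in shCtrl and shAnxa2 cells, on the right shAnxa2 against shCtrl without and after OGD/R, and filled points had an adjusted p under 0.05, as for Marco at 1.96 and −1.80 on the left.

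Next, the lines were compared at each treatment. These comparisons use the same libraries as the ones above, so they restate the levels from another side. Without OGD/R, 8 members differed (59.2% of all genes did). Fcgr2b, Fcer1g, Marco and Cd47 were higher in shAnxa2 cells (29.5% of all genes were) and Fcgr1, Msr1, Mrc1 and Sirpa lower (29.7% were). With a log2 difference of at least 1 asked for, Msr1 and Marco differed (5.68% of all genes). After OGD/R, 9 members differed (67.9% of all genes). Fcgr1 and Fcgr2b were higher (33.8%) and Fcgr3, Fcer1g, Msr1, Mrc1, Marco, Cd47 and Sirpa lower (34.2%), of which Msr1, Marco and Cd47 by at least 1 in log2 (10.1% of all genes). The 3 members Msr1, Mrc1 and Sirpa were lower in shAnxa2 cells at both treatments, where 5.96% of all genes were. Fcer1g, Marco and Cd47 were higher without and lower after OGD/R, as were 16.7% of all genes, and Fcgr1 was lower without and higher after it, as were 16.7%.

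Msr1 had the largest difference between untreated lines, 4.39-fold lower in shAnxa2 cells (log2 fold change −2.13, SE 0.150, adjusted p = 1.83e-11 by the edgeR quasi-likelihood test), and was 2.14-fold lower after OGD/R (−1.10, SE 0.148, adjusted p = 4.67e-07). Mrc1 was 1.97-fold lower without OGD/R (−0.98, SE 0.156, adjusted p = 8.91e-06) and 1.96-fold lower after it (−0.97, SE 0.164, adjusted p = 1.35e-05). Sirpa differed by −0.21 (SE 0.0443, adjusted p = 0.000228 by the same test) and −0.62 (SE 0.0444, adjusted p = 8.86e-12). After OGD/R the largest difference was that of Marco, 6.49-fold lower in shAnxa2 cells (log2 fold change −2.70, SE 0.0938, adjusted p = 2.63e-17), while without OGD/R it was 2.09-fold higher (1.06, SE 0.0888, adjusted p = 3.62e-10). Fcgr2b was higher by 0.27 (SE 0.0612, adjusted p = 0.000556) and 0.16 (SE 0.0613, adjusted p = 0.0282), and its second call was lost with upper-quartile scaling (adjusted p = 0.0803), with no filter (0.0734) and without shCtrl-OGDR replicate 1 (0.0558), shCtrl-OGDR replicate 3 (0.0848), shAnxa2-OGDR replicate 1 (0.124) or shAnxa2-OGDR replicate 2 (0.0928). Fcgr1 differed between the lines by −0.88 (SE 0.0575, adjusted p = 4.36e-12) without and 0.22 (SE 0.0578, adjusted p = 0.00165) after OGD/R. Fcer1g differed by 0.54 (SE 0.0564, adjusted p = 1.68e-08) and −0.43 (SE 0.0563, adjusted p = 2.83e-07), and Cd47 by 0.56 (SE 0.0512, adjusted p = 1.56e-09) and −1.13 (SE 0.0522, adjusted p = 3.45e-15). Fcgr3 differed by −0.28 after OGD/R (SE 0.0498, adjusted p = 2.58e-05), while its value without OGD/R was 0.00 on the log2 scale (adjusted p = 0.965). Fcgr4 did not pass the test in either comparison of the lines (0.12, adjusted p = 0.131, and −0.03, adjusted p = 0.699).

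The interaction passed the test for 7 members, against 70.0% of all genes. It was positive for Fcgr1 and Msr1 (34.9% of all genes) and negative for Fcgr3, Fcer1g, Marco, Cd47 and Sirpa (35.1%), and its size was at least 1 for Fcgr1, Msr1, Marco and Cd47 (21.5%). The median size of the interaction was 0.69 on the log2 scale over the 10 members and 0.52 over all genes tested. The genes whose log2 levels over the 12 libraries were most like those of Marco were Pcmtd2, Lysmd4 and Pja2 (Pearson r of 0.993, 0.992 and 0.991), and 350 genes had r over 0.95. For Fcgr1 they were Cers6, Fancm and Dido1 (r of 0.986, 0.979 and 0.974), with 53 genes over 0.95. The 12 libraries are 4 groups of replicates, so these values describe the group means.

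The promoters of Marco, Cd47 and Fcgr1 are shown because Marco and Cd47 ordered the 4 groups alike and Fcgr1 moved against them. RefSeq windows of GRCm38.p6, from 250 bases before to 50 after the start site, were found for 8 of the 10 members, and Msr1 and Sirpa had no entry. The 250 bases before the start site are printed in the sense of the gene, with motif matches in capitals.
Marco, minus strand, chr1:120505025-120505274: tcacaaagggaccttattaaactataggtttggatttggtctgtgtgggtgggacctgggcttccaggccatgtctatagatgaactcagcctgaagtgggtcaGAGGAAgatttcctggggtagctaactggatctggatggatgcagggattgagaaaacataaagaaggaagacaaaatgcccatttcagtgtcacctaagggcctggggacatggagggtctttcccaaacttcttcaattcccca
Cd47, plus strand, chr16:49855404-49855653: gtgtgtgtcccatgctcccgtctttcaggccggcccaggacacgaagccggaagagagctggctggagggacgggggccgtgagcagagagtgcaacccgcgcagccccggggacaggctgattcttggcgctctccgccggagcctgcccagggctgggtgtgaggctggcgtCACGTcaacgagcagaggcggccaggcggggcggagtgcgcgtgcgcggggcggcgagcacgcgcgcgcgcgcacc
Fcgr1, minus strand, chr3:96293970-96294219: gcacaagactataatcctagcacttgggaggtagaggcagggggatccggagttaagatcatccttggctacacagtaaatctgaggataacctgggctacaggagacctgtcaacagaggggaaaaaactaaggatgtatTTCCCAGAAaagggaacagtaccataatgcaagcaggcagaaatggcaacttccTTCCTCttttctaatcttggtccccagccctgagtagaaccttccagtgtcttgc
In all, 6 motifs were searched on both strands. The PU.1 core GAGGAA was found in 28.3% of 27025 promoters, the gamma interferon activation site TTCNNNGAA in 8.47%, the interferon response element core in 3.49%, the AP-1 site TGANTCA in 7.93%, the antioxidant response element core TGACNNNGC in 12.5% and the hypoxia response element core ACGTG in 19.7%. Marco held a PU.1 core starting at −146 from the start site. Fcgr1 held a gamma interferon activation site at −109 and a PU.1 core at −55, the latter on the opposite strand. Cd47 held the hypoxia response element core at −76, on the opposite strand, in a window of 74.0% G and C against a median of 52.7% for all promoters. In the same windows Fcgr4 held an interferon response element core at −73 and a PU.1 core at −22, Fcgr3 a PU.1 core at −6 and Mrc1 3 PU.1 cores, while Fcgr2b and Fcer1g held none of the 6. The PU.1 cores of Fcgr4, Fcgr3 and Mrc1 lay on the opposite strand. A match describes letters in a window and not binding.

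Last, other genes of these pathways were read from 7 lists, of which 82 genes were tested. With OGD/R, 31 rose and 22 fell in shCtrl cells and 22 rose and 27 fell in shAnxa2 cells, and 26 had a positive and 28 a negative interaction. Of all genes tested, 32.4% rose and 31.0% fell in shCtrl cells, 28.2% rose and 26.8% fell in shAnxa2 cells, and 34.9% had a positive and 35.1% a negative interaction, which is the background for each list. Of 19 genes of ITAM signalling, 11 rose and 4 fell in shCtrl cells and 6 rose and 7 fell in shAnxa2 cells, with median log2 fold changes of 0.15 and −0.067. Syk, the kinase that docks on the γ chain, had log2 fold changes of 0.48 and −0.32, both called. Src, a tyrosine kinase, had counts of 348, 405 and 418 in shCtrl-CTRL, 749, 788 and 678 in shCtrl-OGDR, 826, 933 and 1041 in shAnxa2-CTRL and 504, 637 and 567 in shAnxa2-OGDR. Its interaction was −1.76 (SE 0.107, adjusted p = 4.12e-13 by the edgeR quasi-likelihood test). Its relative Fgr had 2 to 31 counts per library and an interaction of −2.04 (SE 0.619, adjusted p = 0.0054).

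Among 18 tested genes of inhibitory receptors and phosphatases, 8 rose and 5 fell in shCtrl cells and 7 rose and 6 fell in shAnxa2 cells (medians of 0.15 and 0.013), against 32.4%, 31.0%, 28.2% and 26.8% of all genes. Dok2, an inhibitory adaptor, had an interaction of 3.30 (SE 0.141, adjusted p = 6.24e-16 by the edgeR quasi-likelihood test), and Pirb, a paired immunoglobulin-like receptor with ITIMs, one of −2.82 (SE 0.160, adjusted p = 1.22e-13). The phosphatase genes Ptpn6 (SHP-1) and Inpp5d (SHIP-1), which act below ITIMs, had interactions of −0.54 and 0.38, both called. Of 6 other tested Fc receptor genes, 1 rose and 2 fell in shCtrl cells and 1 rose and 1 fell in shAnxa2 cells (medians of −0.25 and 0.25). Fcgrt, the neonatal Fc receptor, had an interaction of −2.48 (SE 0.198, adjusted p = 5.90e-11) and Fcrls, with 4 to 34 counts per library, one of 2.49 (SE 0.535, adjusted p = 0.000232).

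Of 9 tested partners of CD47 and other checkpoint genes, 4 rose and 3 fell in shCtrl cells and 3 rose and 4 fell in shAnxa2 cells (medians of −0.075 and 0.067). Fyb, an adaptor in the SIRPα pathway, had an interaction of −1.68 (SE 0.0935, adjusted p = 7.86e-14 by the edgeR quasi-likelihood test). Slamf7, with 4 to 71 counts per library, had one of −3.01 (SE 0.516, adjusted p = 1.50e-05 by the same test). Its shAnxa2-OGDR libraries had 6, 22 and 4 counts. Of 12 tested scavenger receptors beyond Msr1 and Marco, 0 rose and 3 fell in shCtrl cells and 1 rose and 2 fell in shAnxa2 cells (medians of −0.11 and 0.027), where 63.4% and 55.0% of all genes were called in either direction. Cd36, a lipid scavenger receptor, was at 95.2 ± 4.84, 50.9 ± 2.20, 16.0 ± 2.61 and 18.1 ± 3.13 CPM in shCtrl-CTRL, shCtrl-OGDR, shAnxa2-CTRL and shAnxa2-OGDR (SD, n = 3), and like Msr1 it was lower in shAnxa2 cells at both treatments (log2 fold changes of −2.57 and −1.49). Scara5, with 3 to 20 counts per library, had an interaction of −1.49 that did not pass the test (adjusted p = 0.103 by the edgeR quasi-likelihood test).

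Of the C-type lectin genes beyond Mrc1, 6 were tested, of which Ly75 had too few counts for a fold change. Of the other 5, 3 rose and 1 fell in shCtrl cells and 1 rose and 2 fell in shAnxa2 cells (medians of 0.21 and −0.10), and with Ly75 the medians were 0.39 and −0.50. Clec4e, the Mincle receptor, had an interaction of −2.83 (SE 0.133, adjusted p = 3.38e-15 by the edgeR quasi-likelihood test). Ly75 had 1, 0 and 0 counts in shCtrl-CTRL, 15, 11 and 9 in shCtrl-OGDR, 11, 14 and 6 in shAnxa2-CTRL and 2, 3 and 0 in shAnxa2-OGDR. Of 12 tested receptors and bridges for apoptotic cells, 3 rose and 4 fell in each line (medians of −0.062 and −0.052). Itgb3, with 4 to 67 counts per library, had an interaction of −3.87 (SE 0.443, adjusted p = 3.39e-08) and Adgrb1, with 6 to 42, one of 2.51 (SE 0.494, adjusted p = 8.44e-05).

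**Figure D4:**
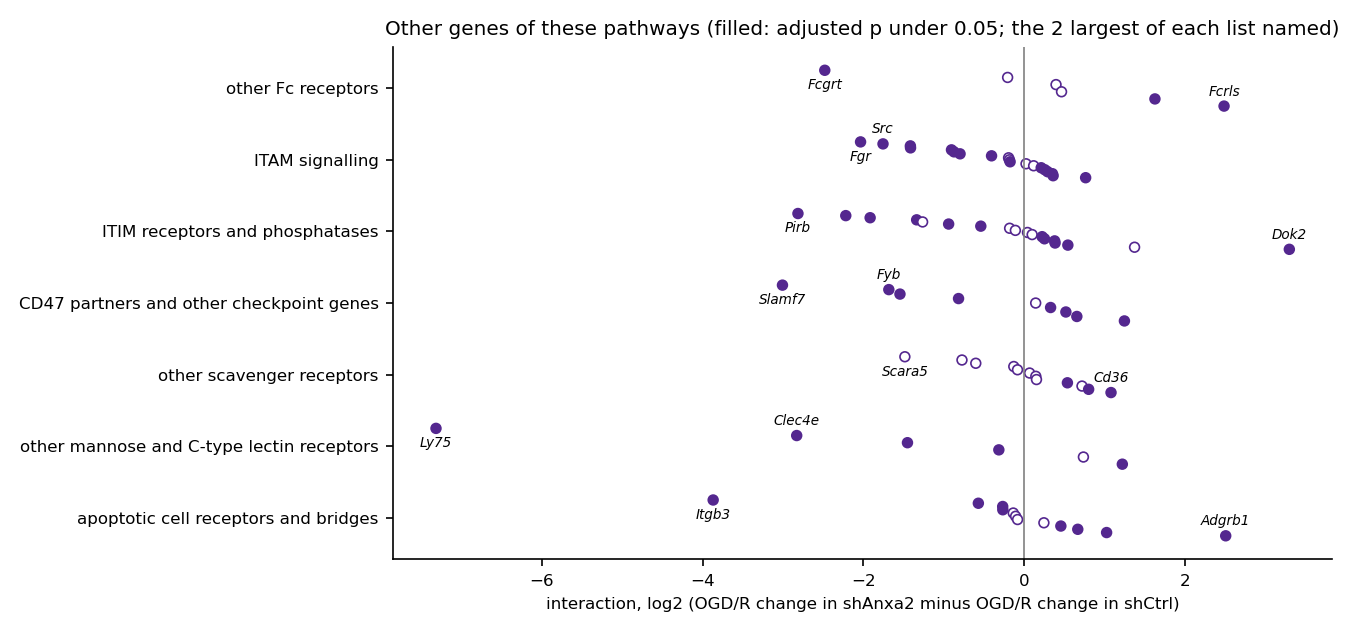
Interaction on the log2 scale (horizontal axis) of each tested gene of the 7 pathway lists (vertical axis). Filled points had an adjusted p under 0.05 and the 2 genes of each list with the largest interaction are named. Of these, Ly75 rests on 15 or fewer counts per library, too few for a fold change.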

How the data were processed

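RNA of 12 BV2 samples was sequenced by the authors after NEBNext library preparation. The submitters' processing notes name HISAT2 2.0.4 and mm39, and the counting step for these cells is not given in the sources used here. The authors deposited raw counts per gene for 21834 protein-coding genes, and 12 further per-sample columns of scaled counts were not used. No source names a batch. One that ran with the groups cannot be told apart from the group differences, and p-values measure the spread between these libraries. Members and lists were chosen with earlier results of these data known.

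Genes with at least 0.5 CPM in at least 3 libraries (11626) were fitted in 1 model with edgeR 4.0.16 in R 4.3.3 (TMM, quasi-likelihood test, Benjamini-Hochberg adjustment over all genes tested). Log2 levels were taken of CPM plus 0.1. Exon lengths came from the merged exons of protein-coding transcripts of GENCODE M21, and principal transcripts and the lectin list without Ly75 were alternatives chosen after seeing the data. The text names all members and the 2 genes of each list with the largest interaction, besides Syk, Ptpn6 and Inpp5d and the locus neighbours Sdhc and Tomm40l, which were chosen after their values were seen. Replicate pairs differed by more than counting error (chi-square per gene of 3.96 to 12.9). The steps were tested on simulated data. Clec7a was not analysed here, and 1 gene of the ITAM list is not reported here and was left out of the list before its genes were ranked.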

Additional observations from a re-analysis of the deposited data

Results flagged for a closer look

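For 7 members the OGD/R change differed between the lines by the interaction term of edgeR's quasi-likelihood test, as it did for 70.0% of all genes tested. The interactions were 1.10 for Fcgr1, −0.28 for Fcgr3, −0.97 for Fcer1g, 1.03 for Msr1, −3.76 for Marco, −1.70 for Cd47 and −0.41 for Sirpa, in log2 units. They rest on the titles, and an exchange of treated and untreated samples within a line would change them.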

How the results depend on the processing

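With a log2 fold change of at least 1 asked for, 1 member was called for OGD/R in shCtrl and 1 in shAnxa2 cells. Of all genes, 6.73% and 3.54% were. Under the same rule, 2 members were called between untreated lines, 3 between lines after OGD/R and 4 for the interaction. Of all genes, 5.68%, 10.1% and 21.5% were. Leaving out 1 library at a time gave 6 to 7, 5 to 7, 8 to 8, 8 to 9 and 7 to 8 members called. With the replicate number as a block, the counts were 6, 7, 8, 9 and 7, and no member's call changed. With all libraries and no block, 63.4%, 55.0%, 59.2%, 67.9% and 70.0% of all genes were called in these comparisons. Same-numbered libraries deviated together little (r of −0.051 to 0.135 in 18 pairs), and 6 of 12 libraries were nearest to their own number. The sources do not say whether the numbers pair libraries. These correlations cannot decide it, because they would miss a weak pairing.

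Of 990 member values over 20 settings (other scaling, filters, DESeq2 1.42.0, voom of limma 3.58.1, only the groups compared, the block, and each library left out), 970 kept their side of the threshold, 11 passed it newly and 9 lost it, and no called value changed sign. Those that moved were Fcgr2b, Fcgr3, Fcgr4, Msr1 and Sirpa, each for log2 fold changes of 0.54 or smaller in size. Fcgr2b after OGD/R in shCtrl cells passed with upper-quartile scaling, voom and the 1 CPM filter (adjusted p down to 0.0216), and with all libraries left out in turn its adjusted p ranged from 0.016 to 0.204. Without length scaling, in shCtrl-CTRL, shCtrl-OGDR, shAnxa2-CTRL and shAnxa2-OGDR, Fcer1g over its 3 partners was 0.881, 1.41, 1.45 and 1.16, Marco over Msr1 was 1.32, 7.20, 12.02 and 2.38, Cd47 over Sirpa was 11.5%, 16.0%, 19.7% and 11.3%, and the Fcgr2b share was 11.5%, 13.3%, 15.1% and 15.9%. The causes were not tested. Depth limits Mrc1 and Msr1, with 43 to 175 and 55 to 343 counts per library.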
